A study of Mus musculus with 6 samples.

Results

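Immediate-early genes are switched on within minutes of a stimulus, before any new protein is made. In muscle they respond to contraction, nerve input, stretch, injury and handling of the tissue. Kinase cascades that end in ERK, JNK, p38 or protein kinase A activate serum response factor, ETS factors and CREB, which already sit at the promoters of these genes, and the products are themselves mostly transcription factors that act on a later set of genes. Egr3 belongs to the same zinc finger family as Egr1 and is known in skeletal muscle for the development of muscle spindles, the stretch sensors whose intrafusal fibres depend on it.

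Described here are 10 genes picked by symbol in the deposited count table, out of 17034 genes with values: Egr1 and Egr3 (zinc finger factors), Fos, Fosb, Jun and Junb (subunits of the AP-1 dimer), Atf3 (a stress-induced relative of the AP-1 and CREB factors), Ier2 (an immediate-early response gene), Nr4a1 (an orphan nuclear receptor) and Myc (a factor for growth genes). RNA was polyadenylated RNA of whole gastrocnemius, a mixed calf muscle, from 8-week-old male mice. The 3 WT libraries came from Thra fl/fl littermates without Cre, and the 3 libraries labelled TRa_mKO from Thra fl/fl mice with a Myf5-Cre transgene, which acts from early myogenic cells on. All mice thus carried the floxed gene of thyroid hormone receptor alpha, and no group carried Cre alone, so the presence of Cre and the loss of the receptor cannot be told apart. Per the labels, all libraries share batch 1, no drug or diet was given, and the muscles were frozen right after dissection.

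Total counts ran from 12390527 to 14488500 per library. Markers of muscle fibres (Acta1, Ckm, Myh4 and Ttn) summed to between 63558 and 93610 CPM in every library (CPM are counts scaled to library size after TMM composition scaling). Thra itself, the targeted gene, stood at 78.8, 92.8 and 96.8 CPM in WT, against 129, 118 and 101 in TRa_mKO, so that the gene count was not lower in the libraries labelled TRa_mKO (adjusted p = 0.117, edgeR quasi-likelihood test). Since the count adds all exons, it does not check the deletion, and every direction below rests on the labels. In whole muscle, fewer cells of a type and less RNA per cell cannot be told apart.

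Promoters of several of these genes carry the core of the cAMP response element (CRE), the letters TGACG, at which CREB and ATF factors bind. Of the 10 genes, 6 matched the RefSeq table of promoters (build GRCm38.p6), and the 150 bases before their start are printed below to show how the motif is placed in them. Capitals mark TGACG on either strand (read as CGTCA on the other) and, in Jun, the variant TGACATCA.
Fos: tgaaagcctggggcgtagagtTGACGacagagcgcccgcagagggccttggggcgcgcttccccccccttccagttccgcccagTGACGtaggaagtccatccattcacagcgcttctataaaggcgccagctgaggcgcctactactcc
Fosb: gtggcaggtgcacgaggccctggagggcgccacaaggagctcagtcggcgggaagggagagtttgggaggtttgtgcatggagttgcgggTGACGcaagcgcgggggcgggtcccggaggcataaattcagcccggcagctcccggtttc
Junb: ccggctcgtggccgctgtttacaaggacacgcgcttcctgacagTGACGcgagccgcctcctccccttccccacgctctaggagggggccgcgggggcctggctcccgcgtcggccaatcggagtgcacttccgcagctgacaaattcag
Nr4a1: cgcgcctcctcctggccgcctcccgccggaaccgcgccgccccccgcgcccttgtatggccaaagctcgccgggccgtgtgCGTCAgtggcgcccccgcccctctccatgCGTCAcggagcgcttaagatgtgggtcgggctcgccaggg
Atf3: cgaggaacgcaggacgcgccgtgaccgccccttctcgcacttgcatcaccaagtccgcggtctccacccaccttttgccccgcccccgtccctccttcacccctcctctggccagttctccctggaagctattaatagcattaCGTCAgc
Jun: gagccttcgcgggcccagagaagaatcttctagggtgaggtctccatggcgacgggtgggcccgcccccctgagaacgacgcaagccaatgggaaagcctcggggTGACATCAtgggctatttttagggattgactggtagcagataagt

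These windows lie at chr12:85473740-85473889 (Fos, plus strand), chr7:19310046-19310195 (Fosb, minus), chr8:84978749-84978898 (Junb, minus), chr15:101266696-101266845 (Nr4a1, plus), chr1:191183334-191183483 (Atf3, minus) and chr4:95052223-95052372 (Jun, minus). In the 250 bases searched before each start, TGACG was present in 5 of the 6 genes, against 17.9% of 27025 promoters of the same length. Nr4a1 held 4 copies, of which those starting at -69 and -40 are in the printed stretch, and Fos held copies at -129 and -66. Of the 6 windows, 1 held the 8-letter variant of Jun, which 3.02% of all promoters held. The EGR motif GCGNGGGCG was present in Fosb and Nr4a1 (4.65% of all promoters). The full palindrome TGACGTCA (1.62% of all promoters), the AP-1 motif TGANTCA (6.87%) and the CArG box of serum response factor (1.4%) were in 0 of the 6 windows, which says only that these letters are not in this stretch.

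Egr3 was the 1 gene of the 10 that passed the test between genotypes with all libraries. The WT libraries held 0.748, 0.775 and 1.19 CPM (mean 0.904 ± 0.247 SD), from counts of 10, 10 and 18. The TRa_mKO libraries held 1.61, 3.23 and 3.18 CPM (mean 2.67 ± 0.921), from counts of 22, 40 and 46. The lowest TRa_mKO library stood above the highest WT library, and the other TRa_mKO libraries were higher still. Egr3 thus rose 2.90-fold (log2 fold change 1.54, SE 0.36, 95% interval 0.73 to 2.35, n = 3 each) and passed (adjusted p = 0.0399 over 13118 genes, quasi-likelihood test of edgeR, threshold 0.05). Of all genes tested, 2.52% were called higher and 1.65% lower (4.17% in all), and 1 call in 10 genes is too few to set these genes apart from that background.

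Egr3 is a scarce transcript, and its call was close to the threshold. A count of 10 has an exact 95% Poisson interval of 4.80 to 18.4 and a count of 22 one of 13.8 to 33.3, which cover counting error only. The call ended without WT replicates 1, 2 or 3 (adjusted p = 0.123, 0.11 and 0.0668), without TRa_mKO replicates 2 or 3 (0.16 and 0.107), with library sizes alone (0.0569) and with limma-voom (0.0631). Haemoglobin transcripts made up 0.179%, 0.0561% and 0.0481% of counts in WT and 0.0663%, 0.0907% and 0.161% in TRa_mKO. Without the richest library of each genotype, an alternative chosen after seeing the data, Egr3 had a log2 fold change of 1.27 (adjusted p = 0.244), while it lay between 1.38 and 1.80 when 1 library was left out.

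**Figure D1:**
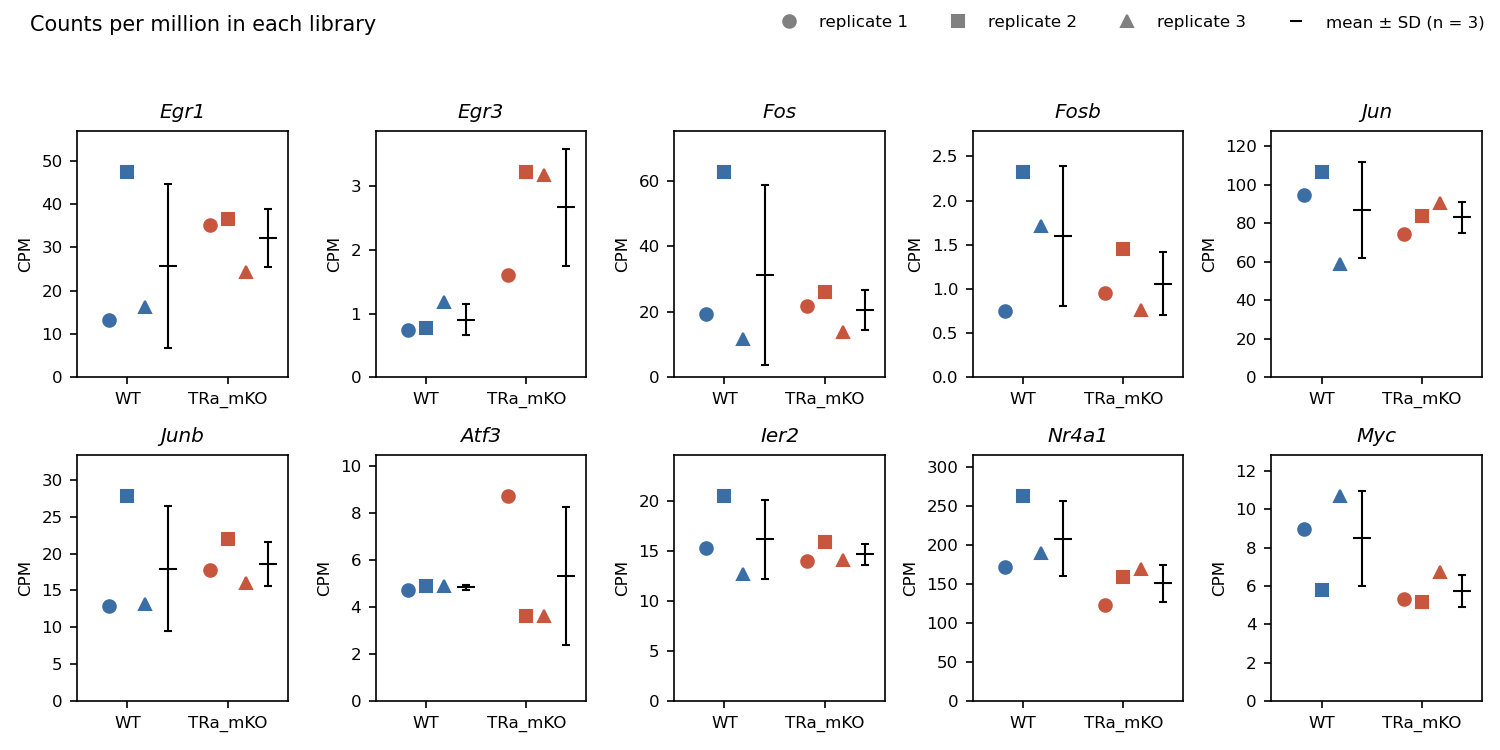
CPM of each of the 10 genes (vertical axes, each from 0) in the 3 WT (blue) and 3 TRa_mKO (red) libraries, with symbols for the replicate and black bars for the mean ± SD (n = 3). The genotypes do not overlap for Egr3 and Nr4a1, and WT replicate 2 (square) is the highest library for Egr1, Fos, Fosb, Jun, Junb, Ier2 and Nr4a1.

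Egr1, the family member best known as an early response factor, did not pass. It stood at 13.2, 47.4 and 16.3 CPM in WT, against 35.2, 36.6 and 24.4 in TRa_mKO. All TRa_mKO libraries lay between the pair of low WT libraries and WT replicate 2. The log2 fold change was 0.33 (SE 0.55, 95% interval -1.08 to 1.73, adjusted p = 0.827, edgeR). Without WT replicate 2, which left 2 WT libraries, Egr1 passed, with a log2 fold change of 1.11 (adjusted p = 0.0211, edgeR). In that fit Egr1 was the 1 gene of the 10 that was called, since Egr3 then missed the threshold at a log2 fold change of 1.44. Without WT replicate 1 or 3 instead, the log2 fold change of Egr1 was 0.0068 or 0.081.

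The AP-1 subunits Fos and Fosb, the inducible leucine zipper partners, did not pass. Fos stood at 19.4, 62.7 and 11.8 CPM in WT, against 21.8, 25.9 and 13.7 in TRa_mKO. WT replicate 2 held 3.23 times the next-highest WT library and the TRa_mKO values lay within the WT range (log2 fold change -0.61, SE 0.71, adjusted p = 0.736, edgeR); without that library the value was 0.40. Fosb, at counts of 10 to 30, stood at 0.748, 2.32 and 1.72 CPM in WT, against 0.952, 1.45 and 0.761 in TRa_mKO. Its genotypes overlapped throughout (log2 fold change -0.61, SE 0.43, adjusted p = 0.505).

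Jun and Junb, the partners of Fos in the dimer, had log2 fold changes near 0. Jun stood at 94.7, 107 and 58.8 CPM in WT, against 74.6, 84 and 90.6 in TRa_mKO (log2 fold change -0.06, 95% interval -0.53 to 0.41, adjusted p = 0.925, edgeR). Junb stood at 12.9, 27.8 and 13.1 CPM in WT, against 17.8, 21.9 and 16.1 in TRa_mKO, and again WT replicate 2 stood above every other library (log2 fold change 0.05, 95% interval -0.70 to 0.81, adjusted p = 0.957). These intervals leave room for changes in either direction.

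Atf3 stood at 4.72, 4.88 and 4.89 CPM in WT, against 8.71, 3.63 and 3.60 in TRa_mKO, where replicate 1 was above and the others below every WT library. The log2 fold change was 0.14 (SE 0.33, adjusted p = 0.883, edgeR), and it was -0.42 without TRa_mKO replicate 1. Ier2 stood at 15.3, 20.5 and 12.7 CPM in WT, against 14.1, 15.9 and 14.1 in TRa_mKO, inside the WT range (log2 fold change -0.14, 95% interval -0.50 to 0.23, adjusted p = 0.732).

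Nr4a1 and Myc were lower on average in TRa_mKO but missed the threshold. Nr4a1, which in muscle is known for its response to adrenergic input and exercise and for glucose handling genes among its targets, stood at 172, 263 and 191 CPM in WT, against 124, 160 and 170 in TRa_mKO. Its genotypes did not overlap, although TRa_mKO replicate 3 was just below WT replicate 1 (log2 fold change -0.46, SE 0.18, 95% interval -0.86 to -0.07, adjusted p = 0.201, edgeR). Over all genes tested, CPM did not overlap with TRa_mKO higher for 13.2% and with TRa_mKO lower for 10.1%, and here 1 of 10 did so each way (Egr3 and Nr4a1). Myc stood at 8.98, 5.81 and 10.7 CPM in WT, against 5.35, 5.16 and 6.71 in TRa_mKO. In contrast to the genes above, WT replicate 2 was the lowest WT library for Myc (log2 fold change -0.57, SE 0.22, 95% interval -1.06 to -0.07, adjusted p = 0.208). Unadjusted, 3 of the 10 genes had p below 0.05 in edgeR (Egr3, Nr4a1 and Myc), and the median log2 fold change of the 10 was -0.10, beside -0.0003 over all genes. The share of all genes below that unadjusted cut-off was not worked out. Such counts, here and in the lists below, therefore do not set any genes apart from the background.

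**Figure D2:**
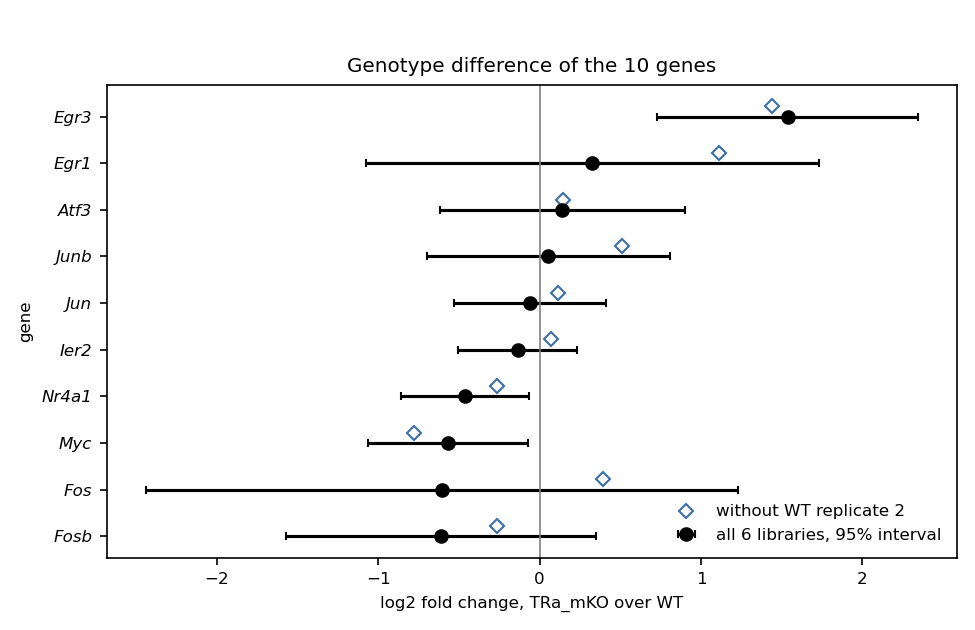
Log2 fold change of each gene, TRa_mKO over WT (horizontal axis), with 95% intervals from all 6 libraries (black) and the value without WT replicate 2 (open diamonds). The interval of Egr3 runs from 0.73 to 2.35, and Egr1 and Fos move furthest when WT replicate 2 is left out, from 0.33 to 1.11 and from -0.61 to 0.40.

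Per kilobase of the longest GENCODE transcript, a rough scale for setting different genes side by side, Nr4a1 was the most abundant in both genotypes. The longest transcript need not be the form present in muscle, and the SDs and overlaps given here do not cover that. In WT it stood at 81.6 ± 18.9 CPM per kb (mean ± SD, n = 3), apart from Jun at 27.2 ± 7.82. Then came Fos at 14.8 ± 13, Ier2 at 10.6 ± 2.62, Junb at 9.93 ± 4.71, Egr1 at 5.72 ± 4.22 and Myc at 3.63 ± 1.06, and from Jun to Myc each gene overlapped the next in its libraries. Myc and Atf3 (2.43 ± 0.0486) did not overlap. The scarcest were Fosb at 0.422 ± 0.21 and Egr3 at 0.229 ± 0.0626, which overlapped each other and not Atf3. In TRa_mKO the order at the bottom was the other way round, with Egr3 at 0.679 ± 0.234 above Fosb at 0.279 ± 0.0944 and no overlap between them. Nr4a1 (59.1 ± 9.46), Jun (26.1 ± 2.53) and Junb (10.3 ± 1.67) led the order in TRa_mKO, and Junb, Fos and Ier2 overlapped.

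Libraries of 1 genotype differed from each other more in these genes than in the typical gene. The SD of log2 CPM over the 3 WT libraries had a median of 0.45 over the 10 genes, beside 0.13 over all 13118 genes tested, and 9 of the 10 were above that value. In TRa_mKO the medians were 0.28 and 0.14, with 8 of 10 above. Restricting the comparison to the 11610 genes of the abundance range of the 10 gave 0.13 and 0.14. That range holds most of the 13118 genes, so it is not a comparison at like abundance for the scarce Egr3 and Fosb. The same measure over the 40 other immediate-early genes was 0.22 in WT and 0.32 in TRa_mKO, above the typical gene too, but with the wider spread in TRa_mKO. These are descriptions, and no test of a spread was made.

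Fos had the widest WT spread, with an SD of 1.23 (percentile 99.7 of all genes tested) and a 5.33-fold range between libraries, followed by Egr1 at 0.98 (percentile 99.3), Fosb at 0.76 and Junb at 0.63. Counting error alone would give Fos and Egr1 in WT an SD of 0.086 and 0.089. For the scarce Egr3 the WT SD of 0.32 was below its counting error of 0.42, and the TRa_mKO SD of 0.54 was above its counting error of 0.25. The SDs are of log2 CPM with a prior count of 2, which narrows them at low counts. The counting error was worked out without it, so for Egr3 the comparison is only rough. Atf3 went the other way from Fos, with an SD of 0.028 in WT and 0.71 in TRa_mKO. Its counting error in WT was 0.18, so the WT libraries were closer together than counting alone would give, and a low spread between mice cannot be read from them. Without WT replicate 2, the median SD of the 10 genes in WT was 0.20. That value rests on 2 libraries, and the median over all genes for the same libraries was not worked out.

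**Figure D3:**
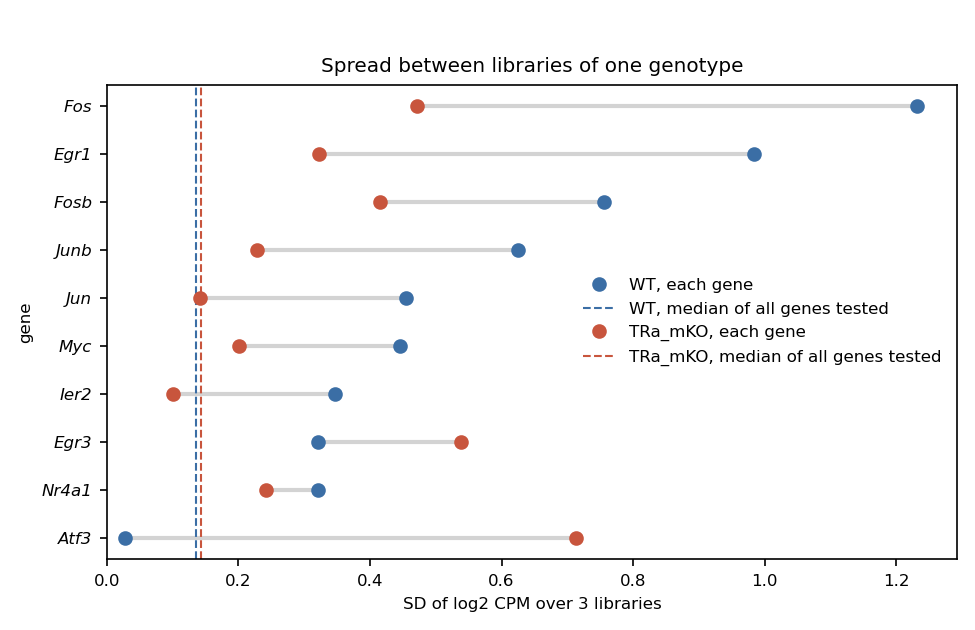
SD of log2 CPM over the 3 libraries of a genotype (horizontal axis) for each gene in WT (blue) and TRa_mKO (red), with dashed lines at the medians of all genes tested, 0.13 and 0.14. Fos and Egr1 have the widest spread in WT (1.23 and 0.98) and Atf3 the widest in TRa_mKO (0.71).

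WT replicate 2 was the highest of all 6 libraries for 7 of the 10 genes (Egr1, Fos, Fosb, Jun, Junb, Ier2 and Nr4a1). It was the highest of the WT libraries for the same number, beside 31.9% of all genes tested. No share of all genes was worked out for the highest of all 6 libraries. Among Schwann cell markers, that library held 48.1 CPM of Mbp, a myelin protein gene, against 169 and 179 CPM in the other WT libraries and 61.7 to 91.1 CPM in TRa_mKO. Sox10, a transcription factor of Schwann cells, was at 5.58 CPM there, against 8.76 and 10.6 CPM in the other WT libraries and 4.39 to 6.71 CPM in TRa_mKO. Without WT replicate 2, Mbp passed as lower in TRa_mKO (log2 fold change -1.24, adjusted p = 0.0045, edgeR). Its summed macrophage markers were 36.3 CPM, against 36.1 to 52.1 CPM in the others, and the 5 markers of endothelium summed to 910 CPM, between the other WT libraries. All 4 muscle fibre markers were highest in WT replicate 2 among the WT libraries (summed 84686 CPM, against 67503 and 63558). Heat shock genes were highest in WT replicate 2 among the WT libraries for 0 of 12. The part of these cell types, of muscle fibre RNA and of tissue handling in the values of WT replicate 2 was not tested. Within TRa_mKO, replicate 2 was the highest library for 6 of the 10 genes and replicate 3 for 3, counts for which no share of all genes is given.

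Of 44 other immediate-early genes listed, 40 were tested, 1 rose and 1 fell, beside 4.17% called over all genes, with a median log2 fold change of 0.02 and 5 with an unadjusted p below 0.05. DESeq2 called 3 of them and limma-voom 1, beside 762 and 515 of all 13118 genes. Jund, the AP-1 subunit that is expressed at rest, stood at 43.9, 40.9 and 43.4 CPM in WT, against 49.7, 57.9 and 59.3 in TRa_mKO. It rose 1.30-fold (log2 fold change 0.38, SE 0.09, adjusted p = 0.047, edgeR), and TRa_mKO replicate 1 was the 1 library whose removal did not end the call, which library sizes alone (0.161), limma-voom (0.0536) and the replicate number as a block (0.112) did end. Arc, an activity-regulated cytoskeletal gene best known from neurons, stood at 2.62, 2.48 and 1.91 CPM in WT, against 1.17, 0.726 and 0.761 in TRa_mKO. Arc was 2.60-fold higher in WT (adjusted p = 0.0311), a call that removing any other library than TRa_mKO replicate 1 ended (0.0535 to 0.131), as did the block (0.0545). In WT replicate 2, 13 of the 40 were at their highest WT value, a share close to the 31.9% of all genes, so that the wider class did not share the order of the 10. Of the 13, the negative regulator of proliferation Btg2 stood at 34.6, 79.5 and 40.1 CPM in WT, against 59.5, 58.1 and 52 in TRa_mKO. Named after their values were seen, the phosphatase gene Dusp1 (112, 165 and 66.9 CPM in WT), the growth arrest gene Gadd45b (32.1, 77.1 and 50.9 CPM), the RNA decay factor gene Zfp36 (28.2, 42.6 and 20.4 CPM) and the matrix gene Ccn1 (38.4, 65.8 and 39.3 CPM) were also highest in WT replicate 2. Others were far from it, such as Socs3, a feedback inhibitor of cytokine signalling (6.59, 6.12 and 33.9 CPM), and Cited2, a transcriptional coregulator (84.4, 74.2 and 228 CPM).

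Genes of the pathways that act on the 10, with feedback genes of these pathways, were mostly not called. Their RNA levels do not measure the activity of the proteins. Of 18 serum response and cAMP response factors, 0 passed in edgeR, DESeq2 or limma-voom and 1 had an unadjusted p below 0.05 (median log2 fold change -0.03). The smallest p values there went to Mrtfa, an actin-regulated coactivator of serum response factor (log2 fold change 0.31, adjusted p = 0.24, edgeR), and Elk3, an ETS partner of it (-0.25, adjusted p = 0.298). In the ERK cascade and its feedback genes, 2 of 23 rose and 0 fell, beside 2.52% and 1.65% of all genes tested. Of the 23, 6 had an unadjusted p below 0.05 in edgeR, a cut-off for which no share of all genes is given. Etv4 and Etv5 are ETS factors that ERK signalling induces. Etv4 stood at 5.61, 6.12 and 6.27 CPM in WT, against 9.96, 10.1 and 10.5 in TRa_mKO, with tight libraries on both sides (1.70-fold, log2 fold change 0.76, SE 0.13, adjusted p = 0.0103). Etv5 stood at 25.4, 21.2 and 24.4 CPM in WT, against 32.3, 31.2 and 32.3 in TRa_mKO (1.35-fold, adjusted p = 0.0317). With 1 library left out, the call of Etv4 ended without TRa_mKO replicate 2 (adjusted p = 0.0501), and that of Etv5 on removing any other library than WT replicate 1 (0.0581 to 0.108) under library sizes alone (0.111) and with the block (0.0681). DESeq2 called Spry1, a feedback inhibitor of ERK signalling, as well.

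In the JNK and p38 cascades, 0 of 18 rose and 1 fell, beside 2.52% and 1.65% of all genes tested, and 3 had an unadjusted p below 0.05. The call was Mapkapk3, a kinase downstream of p38, at 33.5, 41.4 and 46.3 CPM in WT against 27.2, 28.4 and 23.2 CPM in TRa_mKO (WT 1.54-fold higher, adjusted p = 0.0254, edgeR). Removing replicate 2 or 3 of either genotype ended the call (0.0659 to 0.0807), as did the block (0.0633). Among 13 EGR and AP-1 partner genes, which include the EGR corepressors Nab1 and Nab2, Jund was the call, and 2 had an unadjusted p below 0.05. Of 11 genes of the MYC network, 0 passed with any of these tools and 2 had an unadjusted p below 0.05 (median 0.13), and the smallest p values belonged to Mlxip, a glucose-sensing relative (log2 fold change 0.42, adjusted p = 0.109), and Mxi1, a MYC antagonist (0.20, adjusted p = 0.253). Heat shock genes had 0 calls of 12 with any of these tools and 2 at an unadjusted p below 0.05, with Hspa1l, which shares reads with other features, at a log2 fold change of 0.23 (adjusted p = 0.233) and Hsph1 at -0.70 (0.242, and 0.0352 with the replicate number as a block).

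Of 12 genes of ATF4 and the integrated stress response, the pathway that also induces Atf3, 0 rose and 1 fell, beside 2.52% and 1.65% of all genes tested. An unadjusted p below 0.05 was found for 2 of the 12. Ppp1r15a, which restores translation after stress, stood at 37, 52 and 46.1 CPM in WT, against 26.2, 30.7 and 26.2 in TRa_mKO (WT 1.63-fold higher, adjusted p = 0.015, edgeR). The call ended without WT replicate 3 (0.0599) or TRa_mKO replicate 3 (0.0544).

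Because Egr3 is known from muscle spindles, genes of spindles were set beside it. Of 12 tested, 1 rose (Etv4, which intrafusal fibres also express) and 0 fell, beside 2.52% and 1.65% of all genes tested. The median log2 fold change of the 12 was -0.06, and 3 had an unadjusted p below 0.05. The 4 tested of 5 spindle markers summed to 33.5, 20.8 and 24.1 CPM in WT, against 45.5, 43.6 and 47.5 in TRa_mKO. The widest difference within that sum was in Myh7b, a slow and intrafusal myosin heavy chain, at 15.2, 4.96 and 6.21 CPM against 26, 23.3 and 25.3 CPM (no overlap, adjusted p = 0.103 in edgeR), which DESeq2 and limma-voom both called. Ntf3, the neurotrophin that spindles supply to sensory nerve endings, stood at 8.76, 7.90 and 8.38 CPM in WT, against 6.74, 6.05 and 7.54 in TRa_mKO (log2 fold change -0.30, adjusted p = 0.302). Myh6 measured 3.97, 1.78 and 3.23 CPM and 2.78, 4.12 and 4.22 CPM, and Calb1, at 1 to 6 counts a library, was not tested. The part of spindles in the value of Egr3 was not tested.

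Markers of other cell types gave few calls in edgeR, which called 4.17% of all genes tested. Lists of 3 to 5 markers are too short to be set against that share. Pax7, the marker of satellite cells, rose 1.58-fold from 6.36, 7.82 and 6.34 CPM to 11.1, 10.4 and 10.8 CPM (adjusted p = 0.0261, edgeR), as 1 of 5 satellite cell markers (summed 69.5 to 78.6 CPM in WT, 86.1 to 93.5 in TRa_mKO). Its call ended without any library but WT replicate 2 (0.0527 to 0.0916) and with the block (0.0631). By edgeR, calls numbered 0 of 4 for muscle fibre, 0 of 5 each for endothelium, fibroblasts, macrophages, smooth muscle and red blood cells, and 0 of 3 each for neutrophils and mast cells and for adipocytes. At an unadjusted p below 0.05 these counts were 2 for muscle fibre, 3 for endothelium, 1 each for smooth muscle and for neutrophils and mast cells, and 0 for the rest. DESeq2 called Acta1 (adjusted p = 0.00375) and Ttn (0.0465) higher and Kdr (0.00618) lower in TRa_mKO, as well as Calcr of satellite cells. Its calls over all 13118 genes numbered 762. Of all these markers limma-voom called Pax7 alone, beside 515 calls over all genes. Kdr also passed in edgeR without WT replicate 3 (0.0259). Endothelial markers, of cells in which Egr1, Fos and Nr4a1 are also inducible, summed to 980, 910 and 807 CPM in WT, against 587, 660 and 817 in TRa_mKO, with Kdr at a log2 fold change of -0.63 (adjusted p = 0.0949) and Cdh5 at -0.34 (0.201). In 0 of these lists was a marker at 0 in all libraries. The other genes with the smallest p in their lists had adjusted p of 0.138 for Acta1, 0.213 for Ttn, 0.388 for Dcn, 0.579 for Col1a1, 0.729 for Adgre1, 0.783 for C1qa, 0.0938 for Kit, 0.743 for Cma1, 0.231 for Sox10, 0.491 for Mbp, 0.273 for Myh11, 0.354 for Tagln, 0.91 for Plin1, 0.933 for Cfd, 0.855 for Hbb-bt and 0.9 for Alas2; the last pair and Tagln share reads with other features.

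Genes with a pattern like Egr3 over the 6 libraries were found by the smallest root mean square (RMS) difference of log2 CPM centred on each gene's own mean, among genes outside the 10 whose mean log2 CPM reached 1. They were Zdbf2 (an imprinted zinc finger gene, RMS difference 0.15), Sh2d4a (0.21), Acss1 (a mitochondrial acetyl-CoA synthetase, 0.21), Mybph (myosin binding protein H, 0.22, with reads shared with other features) and Bhlhb9 (0.22), beside an RMS of 0.78 for Egr3 itself around its mean. Zdbf2 stood at 3.14, 2.71 and 3.63 CPM in WT, against 6.22, 11.6 and 9.62 in TRa_mKO, with TRa_mKO replicate 1 the lowest of its genotype, as for Egr3. The counting error of Egr3 (SD 0.42 in WT and 0.25 in TRa_mKO) is larger than these RMS differences. The ranking and the order of libraries within a genotype are therefore not settled. None of the other 9 immediate-early genes was as close to Egr3, the nearest being Junb at 0.84 and Jun at 0.87.

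For Egr1 the same measure gave Pcdhga2 (a clustered protocadherin, 0.28, shared reads), Btg2 (0.28), Panx1 (a membrane channel gene, 0.32), Ush1c (0.34) and Aph1c (a gamma-secretase subunit gene, 0.37, shared reads). Egr1 itself varied by 0.66 around its mean, and Junb (0.32, closer than Panx1, Ush1c and Aph1c), Fos (0.53) and Ier2 (0.55) were the nearest of the 10, while Egr3 was at 0.88. Panx1 stood at 7.71, 16.5 and 9.97 CPM in WT, against 15.5, 12.8 and 12.2 in TRa_mKO, again with WT replicate 2 at the top. These likenesses are descriptions of 6 libraries that were used to choose the genes.

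**Figure D4:**
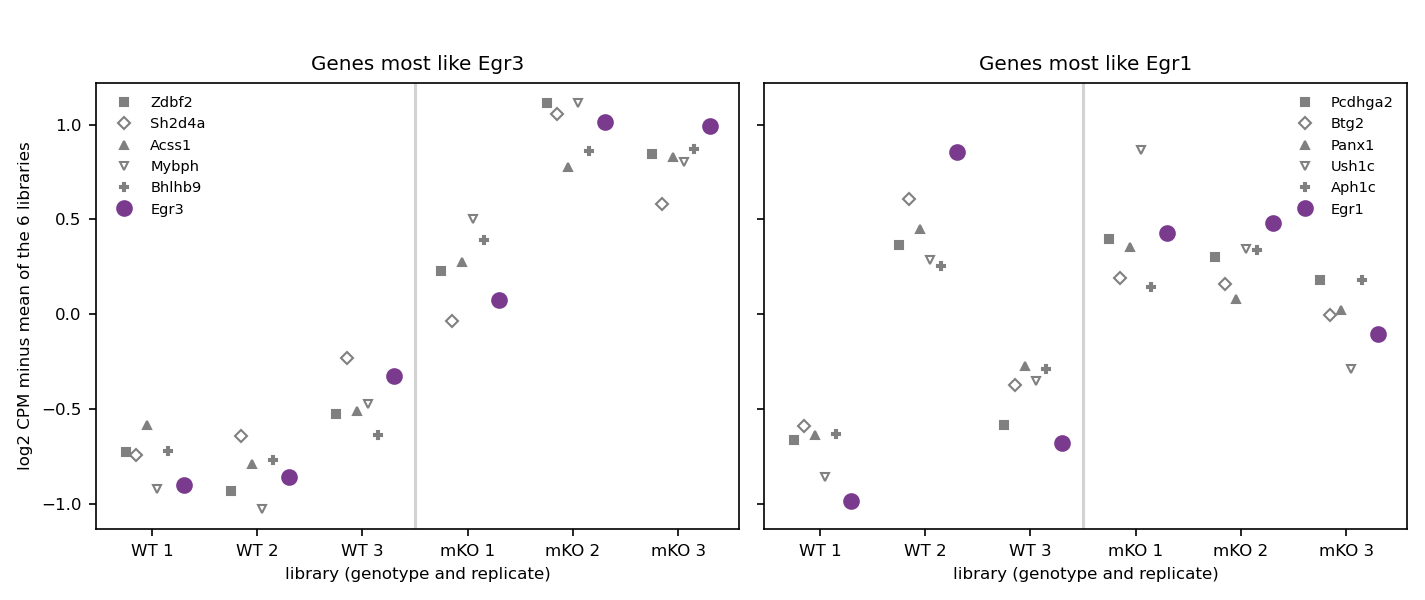
Log2 CPM minus the gene's mean of the 6 libraries (vertical axis) in each library (horizontal axis, mKO for TRa_mKO) for Egr3 (left) and Egr1 (right) as purple points, with the 5 most alike genes outside the 10 in grey symbols. Egr3 is low in all WT libraries, whereas Egr1 is highest in WT replicate 2 and lowest in WT replicates 1 and 3.

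**Figure D5:**
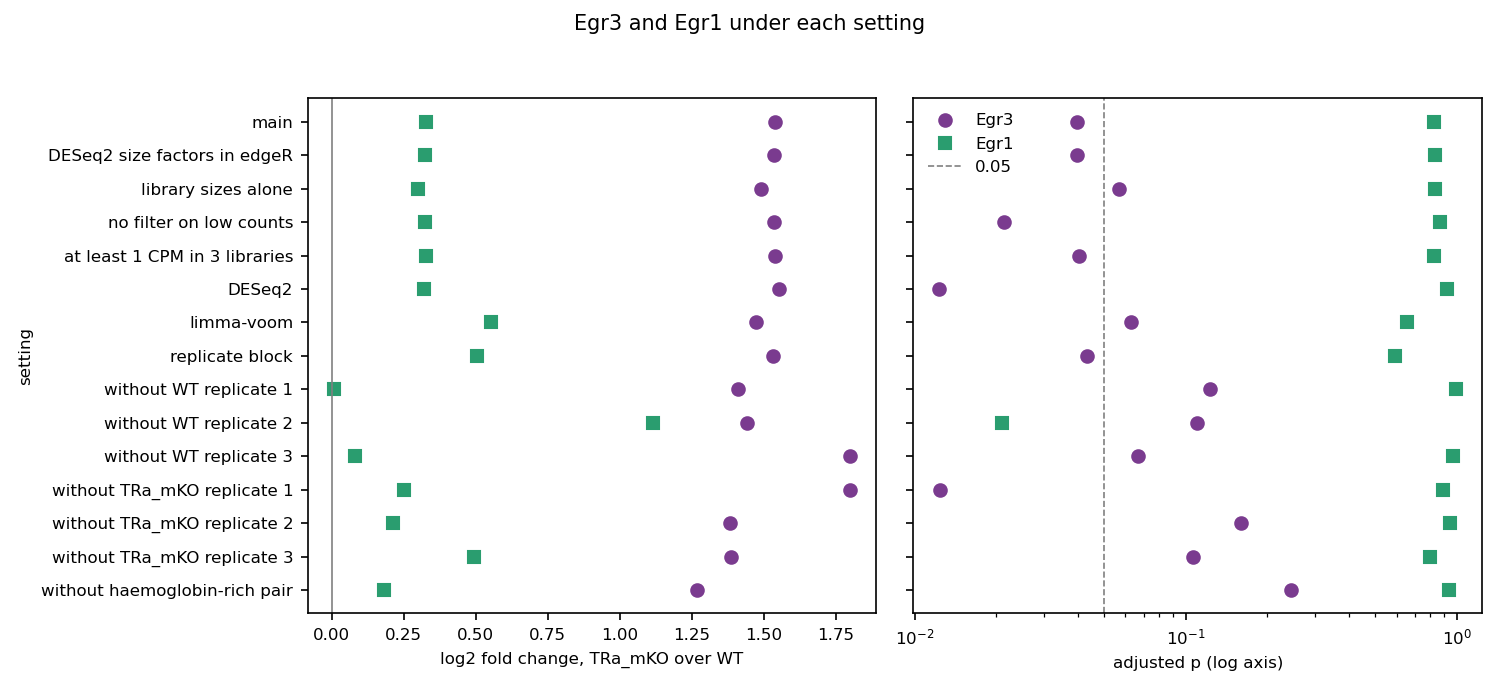
Log2 fold change (left) and adjusted p (right, log axis) of Egr3 (circles) and Egr1 (squares) under each setting, with a dashed line at 0.05. Egr3 has log2 fold changes of 1.27 to 1.80 and lies on both sides of the line, and Egr1 lies below it without WT replicate 2 (0.0211).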

How the data were processed

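One table of gene-level estimated counts was deposited by the authors, without normalization per the file headers; in each library 9.65% to 10.0% of values had a fraction, but in 0 of the 10 genes. FastQC 0.11.9, MultiQC 1.12, Trimmomatic 0.39 and featureCounts appear in the submitters' processing notes. The builds mm10, GRCm38.p6 and GRCm39 are named there too. Which of these builds lies behind the counts, and the aligner, were not given in the sources used here. After rounding, filterByExpr (minimum count 10, which all 10 genes passed) and TMM scaling, genotype was tested as the only factor by the quasi-likelihood method of edgeR 4.0.16 under R 4.3.3, two-sided, with Benjamini-Hochberg adjustment over 13118 genes and a threshold of 0.05. The step was tested on simulated data. Spreads and likeness used log2 CPM with a prior count of 2. The series design gives 3 mice per genotype, and p-values measure the spread between them. Alternatives were other scalings and filters, DESeq2 1.42.0, limma-voom (limma 3.58.1), a replicate block and each library left out. Named are all 10 genes, of each other list those that passed (at most 4 each way) or else those with the 2 smallest p values, and the 5 genes outside the 10 most like Egr3 and Egr1; exceptions are marked. Genes and lists were chosen with earlier results of these data known. Promoter sequences are from RefSeq. Some markers of Schwann cells, and the sum over that list, are not reported here.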

Additional observations from a re-analysis of the deposited data

How the results depend on the processing

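Of the 10 genes, 1 was called, and 0 were with library sizes alone, with limma-voom and without the library of each genotype highest in haemoglobin (WT replicate 1 and TRa_mKO replicate 3, an alternative chosen after seeing the data, in which Egr3 had a log2 fold change of 1.27 and an adjusted p of 0.244); with 1 library left out the count was 0 to 1. Over all genes 547 were called, 209 to 595 with 1 library left out, 267 without the haemoglobin-rich libraries and 357 with the replicate number as a block. Library sizes alone gave 213 higher and 255 lower genes, against 331 and 216, and shifted the median log2 fold change by -0.05. Replicate numbers share only a number: deviations of same-numbered libraries correlated at -0.18, 0.00 and -0.01, and 0.20 was the highest of any pair, of unlike numbers. With the replicate block Egr3 kept its call (adjusted p = 0.0434), Arc, Jund, Etv5, Mapkapk3 and Pax7 lost theirs, and Hsph1 gained one (0.0352).

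With 1 library left out, log2 fold changes ran from -1.01 to 0.40 for Fos, -0.28 to 0.12 for Jun, -0.14 to 0.51 for Junb, -0.42 to 0.36 for Atf3 and -0.29 to 0.069 for Ier2. The sign changed for Fos, Jun and Ier2 without WT replicate 2, for Jun (0.013) and Atf3 without TRa_mKO replicate 1, and for Junb without WT replicate 1, WT replicate 3 (-0.13), TRa_mKO replicate 2 (-0.090) or the haemoglobin-rich libraries (-0.036). Among list genes the ranges that crossed 0 were -0.34 to 1.125 for Alas2 (-0.085 without WT replicate 3), -0.47 to 0.12 for Cfd (0.00011 without WT replicate 3, 0.070 without TRa_mKO replicate 1, 0.067 without the haemoglobin-rich libraries), -0.16 to 1.22 for Hbb-bt and -0.35 to 0.45 for Plin1 (-0.047 without WT replicate 1). None of the values with a changed sign was called, and the cause was not tested. Egr3, Nr4a1, Myc and Fosb kept their direction under all 14 alternatives. Egr1 stayed above 0 too, but only at 0.0068 without WT replicate 1 and 0.081 without WT replicate 3, so its direction is not settled. The median SD of the 10 genes ranged from 0.20 to 0.55 in WT and from 0.19 to 0.27 in TRa_mKO with 1 library left out. The counts of Egr3 and Fosb, 10 to 46 a library, limit their precision.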

Other observations

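Beyond the genes named by rule, chosen after their values were seen, Nr4a3, a relative of Nr4a1 that exercise induces in muscle, stood at 5.39, 3.10 and 2.77 CPM in WT, against 1.46, 1.29 and 1.94 in TRa_mKO, with no overlap and a log2 fold change of -1.24 (adjusted p = 0.0565, edgeR quasi-likelihood test; DESeq2 called it). Nr4a2, the third of that family, stood at 4.72, 3.56 and 4.29 CPM in WT, against 3.22, 4.84 and 4.50 in TRa_mKO. Egr2, another EGR factor, stood at 7.04, 6.35 and 9.18 CPM in WT, against 7.32, 5.49 and 7.89 in TRa_mKO (adjusted p = 0.796). In TRa_mKO, Socs3 stood at 22.3, 11.5 and 6.37 CPM. The neutrophil genes S100a8 and S100a9 had 38 and 73 counts in TRa_mKO replicate 2 and between 0 and 11 in the other libraries.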
